A study of Mus musculus with 2 samples.

Results

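ATP-binding cassette (ABC) genes were followed in CT26, a mouse colon carcinoma cell line, through the deposited table of gene expression. Members were the rows annotated as protein-coding whose symbol reads Abc, then a letter from a to g, then a number. This rule found 50 of the 54532 genes in the table, with 16 in subfamily A, 10 in B, 10 in C, 4 in D, 1 in E, 3 in F and 6 in G. The tested culture had received lentivirus for forced expression of mouse Oct4, which the gene Pou5f1 encodes, together with human SOX2. Its control was the same line, labelled wild type, with lentivirus carrying an empty vector. Both were grown for 4 days before RNA sequencing. The series describes the Oct4 and SOX2 culture as de-differentiated, and each library is 1 culture of 1 line, so no test across samples was possible. The labels give no batch and do not name the promoter of the vector.

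ABC proteins bind and split ATP in paired nucleotide-binding domains, and most of them use that energy to carry a substrate across a membrane. Subfamily A moves lipids and subfamily B holds the P-glycoprotein drug exporters and several mitochondrial transporters. Subfamily C exports conjugates and nucleotides, subfamily D feeds fatty acids to the peroxisome, and subfamily G holds sterol and drug exporters. Subfamilies E and F have no membrane part and act in translation. In colon tumours the drug exporters are studied for resistance to chemotherapy, and Abcg2 and Abcb5 are used as markers of stem-like cells.

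The Oct4 and SOX2 library held 31521115 gene-assigned reads and the empty vector library 32262408. Pou5f1 stood at 173 FPKM, from 12406 reads, in the Oct4 and SOX2 library and had 0 reads in the empty vector library. Sox2, the mouse gene in the table, was at 23.3 FPKM from 1525 reads in the Oct4 and SOX2 library and at 14.1 FPKM from 929 reads in the empty vector library, 1.64-fold higher (95% counting interval 1.51 to 1.79). The SOX2 introduced is the human gene, so of the introduced factors Pou5f1 alone checks the labels directly. Whether reads of the human gene were counted on mouse Sox2 was not tested. FPKM divides the fragments of a gene by its length in kilobases and by the size of the library, so levels of different genes can be compared. Of 12 colon epithelium markers 10 were under 1 FPKM in both libraries, with Cdh1 and Cdx1 at 0 reads in both. Krt20, an enterocyte keratin gene, was at 28.3 FPKM in the Oct4 and SOX2 library and 14.9 FPKM in the empty vector library, while Krt18, of simple epithelia, was at 11.3 FPKM in the Oct4 and SOX2 library and 15.2 FPKM in the empty vector library. The 12 summed to 39.9 FPKM with Oct4 and SOX2 and 30.97 FPKM with the empty vector. All 6 mesenchymal markers passed 1 FPKM, 4 with counting intervals above 1 and 2 below. Of protein-coding genes 34.3% had such an interval above 1 and 37.6% below. The mesenchymal markers summed to 1737 FPKM with Oct4 and SOX2 and 1205 FPKM with the empty vector. The most abundant, Vim, was at 966 FPKM with Oct4 and SOX2 and 599 FPKM with the empty vector, and Col1a1 was at 40.0 and 62.1 FPKM in the same order of libraries. Of the markers of leukocytes, endothelium and liver cells, 1 of 7, 0 of 4 and 0 of 4 reached 1 FPKM, with Cd3e, Adgre1, Pecam1, Cdh5, Alb, Ttr and Apob at 0 reads in both libraries. The part these markers play in the ABC values was not tested.

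The summed level of the family was close between the libraries, and many members were barely expressed in this line. Of the 50 members 23 reached 1 FPKM in at least 1 library and 27 did not. Summed over all 50 members, the level was 420 FPKM in the Oct4 and SOX2 library and 417 FPKM in the empty vector library. No measured member was 2-fold different on the scale of log2(FPKM + 1), which understates the ratios of low genes. Among 12401 genes with at least 1 FPKM, 2.42% were at least 2-fold higher and 1.85% at least 2-fold lower. Among the 10276 protein-coding ones the shares were 1.39% and 1.07%.

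At 1.5-fold on that scale, 2 members, Abcd2 and Abca1, were higher with Oct4 and SOX2, 1 was lower, and 20 lay within 1.5-fold. With plain library totals 0 were lower. The background at 1.5-fold was 6.58% higher and 6.34% lower over all genes, and 4.71% and 4.48% over protein-coding genes. The members' 2 of 23 higher and 1 of 23 lower lie close to these shares. The median log2 ratio of the 23 was -0.02, against -0.01 over protein-coding genes. Counting error was small at this depth. In plain FPKM the exact 95% counting interval of the ratio lay above 1 for 8 members and below 1 for 8, and included 1 for 7. Over protein-coding genes 34.3% lay above 1 and 37.6% below. These intervals cover counting error only and say nothing of how cultures vary. In bulk RNA, a change in every cell cannot be told apart from a change in the share of cells that express a gene.

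**Figure D1:**
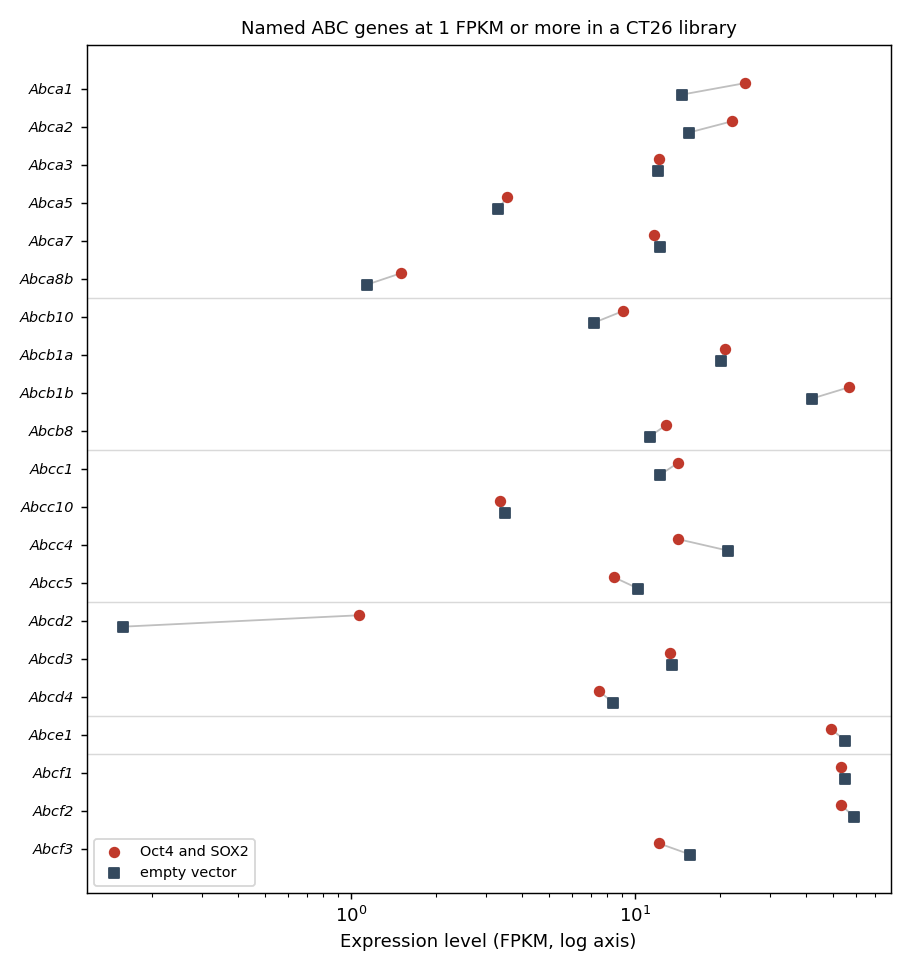
Expression level in FPKM, on a log axis, of the named ABC genes at 1 FPKM or more in at least 1 library, by subfamily from A to F. Red circles are the Oct4 and SOX2 library and dark squares the empty vector library. Abcd2 shows the widest gap, at 1.07 and 0.158 FPKM, while Abcb1b, Abce1, Abcf1 and Abcf2 are the highest genes in both libraries.

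**Figure D2:**
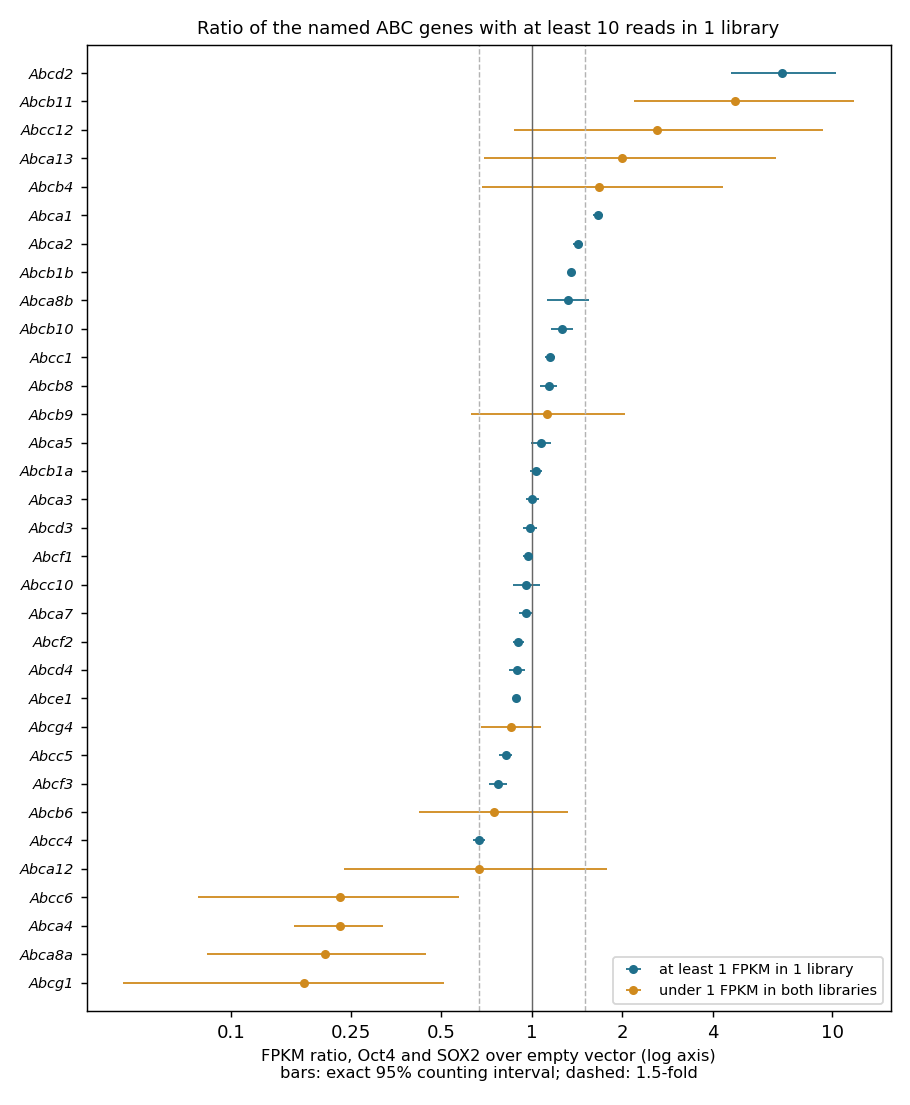
FPKM ratio, Oct4 and SOX2 over empty vector, on a log axis, for the named ABC genes with at least 10 reads in 1 library, with the exact 95% counting interval as a bar and 1.5-fold as dashed lines. Members at 1 FPKM or more (blue) are drawn apart from the 12 under 1 FPKM in both libraries (orange), and 5 of the orange bars exclude 1. Bars widen as reads fall, and Abcd2 has the widest blue bar.

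Subfamily A was the one with the largest ratio of summed levels, at 75.6 FPKM in the Oct4 and SOX2 library and 59.7 FPKM in the empty vector library, a ratio of 1.26. Of its 16 members 6 were measured, with a median log2 ratio of 0.15. That median was 0.062 with a pseudocount of 5 and -0.0060 over the whole subfamily with no filter, so its direction depends on the filter. Abca1, which exports cholesterol and phospholipid to lipid-poor apolipoproteins, was at 24.3 FPKM from 8037 reads in the Oct4 and SOX2 library and at 14.6 FPKM from 4841 reads in the empty vector library. That is 1.66-fold higher (95% counting interval 1.60 to 1.72). Abca1 (ENSMUSG00000015243) lies on chr4:53030787-53159895 of GRCm38, and its principal transcript in GENCODE M21 has 50 exons and 6783 coding bases. Abca2, an endolysosomal lipid transporter gene abundant in oligodendrocytes, was at 22.0 FPKM in the Oct4 and SOX2 library and 15.5 FPKM in the empty vector library, 1.43-fold higher (1.37 to 1.48). Together the differences of Abca1 and Abca2 slightly exceed the difference in the subfamily's sum, so its other members, summed, were slightly lower.

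The other measured members of subfamily A stayed close to the control. Abca3, which loads phospholipid into the lamellar bodies of lung cells, was at 12.2 FPKM in the Oct4 and SOX2 library and 12.1 FPKM in the empty vector library. Abca7, a phospholipid transporter gene known as an Alzheimer's disease risk gene in humans, was at 11.7 and 12.3 FPKM in the Oct4 and SOX2 and empty vector libraries. Abca5, a lysosomal member, was at 3.55 FPKM with Oct4 and SOX2 and 3.30 FPKM with the empty vector, and the counting intervals of these 3 ratios include 1. Abca8b was at 1.501 FPKM with Oct4 and SOX2 and 1.14 FPKM with the empty vector, 1.32-fold higher (1.12 to 1.55). Part of Abca3, 9.75% of its exon bases, overlaps the transcript D330041H03Rik on the opposite strand, which stood at 1.37 FPKM with Oct4 and SOX2 and 2.45 FPKM with the empty vector. No source used here says whether counting used the strand, so the reads of both genes cannot be told apart there.

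Abca5 and Abca8b belong to a tandem cluster of 5 genes on chromosome 11 in which the genes between them are close to silent. From Abca8b at 109932190 to the end of Abca5 at 110337716, the order is Abca8b, Abca8a, Abca9, Abca6 and Abca5, all on the minus strand. Abca8a had 8 reads in the Oct4 and SOX2 library and 39 in the empty vector library. Abca9 had 2 and 8 reads and Abca6 had 2 and 4 in the same order of libraries. On chromosome 17, Abca3 and Abca17 start within 1 kb of each other on opposite strands, and Abca17 had 2 reads with Oct4 and SOX2 and 7 with the empty vector, against 3407 and 3393 on Abca3.

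Subfamily B was dominated by Abcb1b, and its 5 measured members had a median log2 ratio of 0.18, against 0.036 with no filter. Its summed level was 110 FPKM in the Oct4 and SOX2 library and 97.1 FPKM in the empty vector library. Mice have Abcb1a and Abcb1b where humans have the gene for P-glycoprotein, the broad exporter of hydrophobic drugs. Abcb1b was at 56.8 FPKM from 14456 reads with Oct4 and SOX2 and at 41.9 FPKM from 10687 reads with the empty vector, 1.36-fold higher (1.32 to 1.39). Abcb1a was at 20.7 FPKM from 3615 reads with Oct4 and SOX2 and at 20.1 FPKM from 3508 reads with the empty vector, a ratio of 1.03 (0.985 to 1.08). Summed, the pair had 18071 reads with Oct4 and SOX2 and 14195 with the empty vector, a ratio of 1.28 (1.25 to 1.30). Abcb1b was the higher of the pair in both libraries.

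The pair lies in tandem on chromosome 5, Abcb1a (ENSMUSG00000040584) on chr5:8660077-8748575 and Abcb1b (ENSMUSG00000028970) on chr5:8798147-8866315, followed by Abcb4. Their coding sequences, from GENCODE M21 transcripts, are 88.2% identical over 3816 aligned bases. Of the 50-base stretches of the principal transcripts, 18.6% of those in Abcb1a and 19.6% of those in Abcb1b also occur in a transcript of another gene, mostly in each other. For 100-base stretches the shares were 8.51% and 8.89%. No source used here gives the read length or how reads with several matches were counted, so the split of reads between the pair is uncertain to that extent. The following windows of 60 coding bases show both extremes, with capitals at the bases that differ. The first covers the signature motif of the second nucleotide-binding domain, where the genes have 0 differences. The other, in the linker that joins the homologous parts of the protein, is the ungapped window with the most differences, 24.
Abcb1a, coding bases 3490 to 3549: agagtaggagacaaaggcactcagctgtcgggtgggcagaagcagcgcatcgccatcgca
Abcb1b, coding bases 3496 to 3555: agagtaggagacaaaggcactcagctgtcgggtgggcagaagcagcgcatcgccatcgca
Abcb1a, coding bases 1912 to 1971: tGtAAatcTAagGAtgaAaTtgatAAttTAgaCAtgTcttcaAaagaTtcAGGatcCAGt
Abcb1b, coding bases 1921 to 1980: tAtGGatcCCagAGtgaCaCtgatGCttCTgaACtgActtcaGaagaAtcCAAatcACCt

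Promoter windows from RefSeq on GRCm38.p6, 250 bases before to 50 after each start, were found for 38 of the 50 members and 17 of the 23 measured ones. Those of Abca1, Abcb1a and Abcb1b are shown because Abca1 was 1 of the members past 1.5-fold and the other two are the near copies with unlike ratios. Both strands were searched for the POU octamer ATGCAAAT and the SOX core ACAATGG, the motifs of the introduced factors' families, and also for the TATA box (TATAAA), the CCAAT box (CCAAT), the GC box (GGGCGG) and the E-box (CACGTG). Capitals mark each match.
Abca1, chr4:53159846-53160145, minus strand: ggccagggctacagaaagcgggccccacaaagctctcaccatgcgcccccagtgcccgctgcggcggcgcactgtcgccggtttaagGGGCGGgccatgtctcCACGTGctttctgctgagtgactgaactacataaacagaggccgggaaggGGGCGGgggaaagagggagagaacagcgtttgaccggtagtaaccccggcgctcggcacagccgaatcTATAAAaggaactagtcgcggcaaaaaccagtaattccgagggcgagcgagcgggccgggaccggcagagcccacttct
Abcb1a, chr5:8566841-8567140, plus strand: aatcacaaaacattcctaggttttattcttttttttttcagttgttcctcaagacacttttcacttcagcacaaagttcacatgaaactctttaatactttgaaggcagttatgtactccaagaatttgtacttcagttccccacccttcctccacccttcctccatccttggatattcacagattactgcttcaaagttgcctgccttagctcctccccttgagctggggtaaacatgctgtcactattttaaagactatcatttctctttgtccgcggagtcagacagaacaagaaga
Abcb1b, chr5:8797897-8798196, plus strand: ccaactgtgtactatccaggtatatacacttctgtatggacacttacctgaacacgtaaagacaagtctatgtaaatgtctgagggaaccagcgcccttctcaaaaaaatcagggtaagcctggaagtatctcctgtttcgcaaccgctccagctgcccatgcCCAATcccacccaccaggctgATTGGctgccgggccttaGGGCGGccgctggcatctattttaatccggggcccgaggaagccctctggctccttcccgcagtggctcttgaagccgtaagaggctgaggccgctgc

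The Abca1 window held a TATA box at -29 from the start, GC boxes at -97 and -163 and an E-box at -147. The Abcb1b window held CCAAT boxes at -87 and, on the other strand, at -66, and a GC box at -48. The Abcb1a window held none of the 6, and its RefSeq start lies 93.0 kb before the start of the gene in the deposited table. Among all 32851 windows of this length, the TATA box was in 13.6%, the CCAAT box in 37.4%, the GC box in 35.7%, the E-box in 7.15%, the octamer in 1.74% and the SOX core in 3.66%. Of the 17 measured members with a window, the octamer was in 0, the SOX core in Abcc10 alone, and the GC box in 12. The CCAAT box was in 4, the E-box in 4 and the TATA box in Abca1 alone. A member was counted if any of its windows held the motif, while the shares above count single windows. Letters in a window are a description and not a site.

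Abcb10 and Abcb8 act in mitochondria. Abcb10, an inner-membrane transporter needed for heme synthesis in red-cell precursors, was at 9.05 FPKM with Oct4 and SOX2 and 7.19 FPKM with the empty vector, 1.26-fold higher (1.16 to 1.37). Abcb8, also of the inner membrane, was at 12.8 FPKM with Oct4 and SOX2 and 11.3 FPKM with the empty vector, 1.14-fold higher (1.07 to 1.22). An antisense transcript, Gm45890, covers 10.3% of the Abcb10 exon bases and had 8 reads with Oct4 and SOX2 and 19 with the empty vector.

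Genes of mitochondrial iron-sulfur and heme synthesis, a list of 23, were all measured, with a median log2 ratio of -0.03. On the FPKM + 1 scale 0 of them were at least 1.5-fold higher and 2 were lower. Over protein-coding genes those shares were 4.71% and 4.48%. Cpox, for coproporphyrinogen oxidase of heme synthesis, was at 27.6 FPKM with Oct4 and SOX2 and 50.3 FPKM with the empty vector, 1.82-fold lower (1.77 to 1.88). Hspa9, the mitochondrial chaperone mortalin, was at 349 FPKM with Oct4 and SOX2 and 551 FPKM with the empty vector, 1.58-fold lower (1.56 to 1.60). The other 21 genes of the list were within 1.5-fold on the FPKM + 1 scale. Of these, in plain FPKM, Flvcr1 was 1.57-fold lower (1.45 to 1.69) and Slc25a37 was 1.504-fold lower (1.46 to 1.55), both named after their values were seen.

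Subfamily C was lower in sum, at 40.3 FPKM with Oct4 and SOX2 and 47.6 FPKM with the empty vector, and 4 of its 10 members were measured, with a median log2 ratio of -0.15, against -0.029 with no filter and -0.26 with a filter of 5 FPKM. Abcc4, which exports cyclic nucleotides and prostaglandins, was at 14.2 FPKM from 2898 reads with Oct4 and SOX2 and at 21.3 FPKM from 4341 reads with the empty vector. It was 1.495-fold lower in plain FPKM (1.43 to 1.57) and had a log2 ratio of -0.55, inside the 1.5-fold line. Abcc5, another exporter of cyclic nucleotides, was at 8.44 FPKM with Oct4 and SOX2 and 10.3 FPKM with the empty vector, 1.22-fold lower (1.16 to 1.28). Abcc1, the multidrug resistance protein that exports glutathione conjugates, went the other way, at 14.1 FPKM with Oct4 and SOX2 and 12.3 FPKM with the empty vector, 1.15-fold higher (1.11 to 1.19). Abcc10, a related drug exporter gene, was at 3.36 and 3.50 FPKM in the Oct4 and SOX2 and empty vector libraries, and its interval includes 1. The exporter genes of subfamilies B and C thus went both ways, with Abcb1b and Abcc1 higher, Abcc4 and Abcc5 lower, and Abcb1a and Abcc10 with intervals that include 1.

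The glutathione and xenobiotic response list, whose products feed or control the conjugate exporters, had 11 of 17 genes measured and a median log2 ratio of -0.05. On the FPKM + 1 scale 1 gene of it was at least 1.5-fold higher and 2 were lower, of which 1 passed 2-fold. Among protein-coding genes 4.71% were at least 1.5-fold higher and 4.48% lower. At 2-fold those shares were 1.39% and 1.07%. Gsr, for glutathione reductase, was at 33.4 FPKM with Oct4 and SOX2 and 19.0 FPKM with the empty vector, 1.76-fold higher (1.65 to 1.87). The glutathione transferase gene Gsta4 was at 4.69 FPKM with Oct4 and SOX2 and 10.7 FPKM with the empty vector, 2.28-fold lower (1.92 to 2.72). Gstm1, of the same enzyme class, was at 11.9 FPKM with Oct4 and SOX2 and 19.0 FPKM with the empty vector, 1.60-fold lower (1.44 to 1.78). In plain FPKM Gclm of this list, named after its values were seen, was 1.53-fold higher (1.45 to 1.61).

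Subfamily D held the largest ratio of the family, in 1 gene of low level, while its summed level was slightly lower with Oct4 and SOX2. All 4 members, which work as dimers, were measured. Abcd2, a peroxisomal transporter of very long-chain and unsaturated acyl-CoA, was at 1.07 FPKM from 203 reads with Oct4 and SOX2 and at 0.158 FPKM from 30 reads with the empty vector. That is 6.78-fold higher in plain FPKM (4.60 to 10.3). On the FPKM + 1 scale its log2 ratio was 0.84. It passed the 1 FPKM filter only through the Oct4 and SOX2 library.

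Abcd2 (ENSMUSG00000055782) lies on chr15:91145871-91191799 on the minus strand, with 10 exons in the principal transcript. Of its 50-base stretches 0.657% also occur in a transcript of another gene, and of its 100-base stretches 0% do. How many of its reads could be shared was not tested. The window below is shown because Abcd2 had the highest ratio, and its capitals mark the signature motif, the sequence that defines ABC proteins.
Abcd2, coding bases 1804 to 1863: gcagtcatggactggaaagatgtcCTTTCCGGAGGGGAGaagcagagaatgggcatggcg

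Abcd3, the most abundant peroxisomal member, which carries branched-chain and dicarboxylic acyl-CoA, was at 13.3 FPKM with Oct4 and SOX2 and 13.5 FPKM with the empty vector, a ratio of 0.985 (0.935 to 1.04). Of 26 genes for peroxisomal import and fatty acid oxidation 23 were measured, 12 above a log2 ratio of 0 and 11 below, with a median of 0.02. The exception was Crot, for the carnitine octanoyltransferase that hands shortened chains on from the peroxisome, at 34.2 FPKM with Oct4 and SOX2 and 16.5 FPKM with the empty vector. It was 2.07-fold higher (1.98 to 2.17) and the 1 gene of the list past 1.5-fold on the FPKM + 1 scale. At that fold 4.71% of protein-coding genes were higher and 4.48% lower.

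Abcd4, which moves cobalamin out of the lysosome, was at 7.49 FPKM with Oct4 and SOX2 and 8.37 FPKM with the empty vector, 1.12-fold lower (1.05 to 1.19). The other cobalamin pathway genes, 9 measured of 10 found in the table, had a median log2 ratio of -0.12. All 9 were within 1.5-fold on the FPKM + 1 scale. Of protein-coding genes 4.71% were higher and 4.48% lower by at least that fold. In plain FPKM Mtr, for methionine synthase, chosen after its values were seen, was at 4.95 FPKM with Oct4 and SOX2 and 7.90 FPKM with the empty vector, 1.595-fold lower (1.49 to 1.71). The most abundant were Mmadhc, a cobalamin trafficking gene, at 44.3 FPKM with Oct4 and SOX2 and 52.6 FPKM with the empty vector, and Mut, for methylmalonyl-CoA mutase, at 13.5 and 14.7 FPKM in the same order of libraries.

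**Figure D3:**
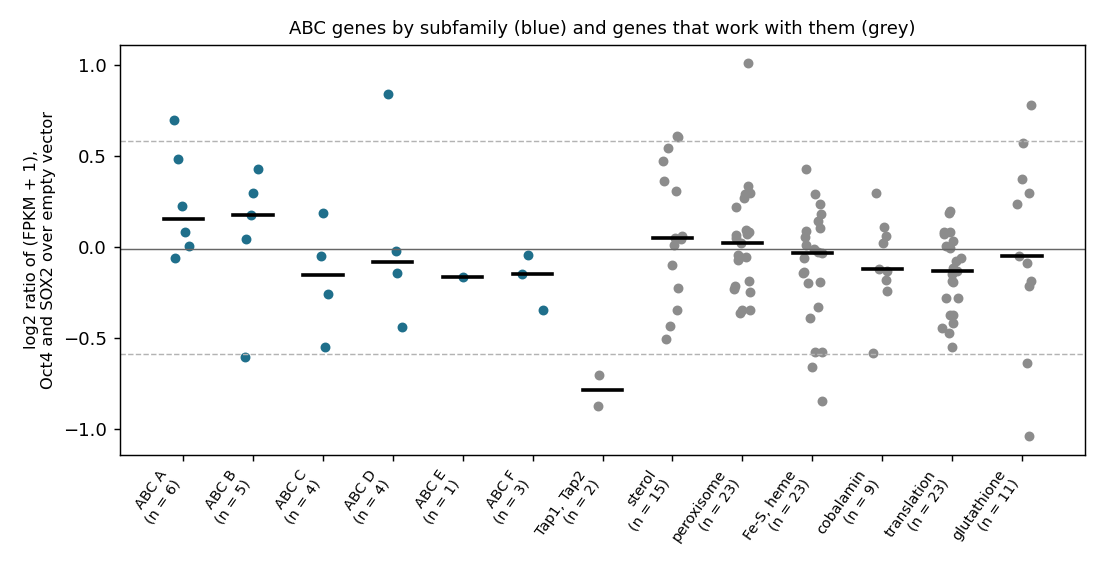
Each point is log2 of (FPKM + 1) in the Oct4 and SOX2 library minus that in the empty vector library, for each measured ABC gene by subfamily (blue) and of measured genes that work with them (grey). Short black lines are medians, the long line is the median of protein-coding genes at -0.01, and the dashed lines are 1.5-fold. Abcd2 at 0.84 and Abca1 at 0.70 are the ABC genes above the upper dashed line, and Tap1 and Tap2 lie below the lower one.

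Subfamilies E and F were among the most abundant in the family, and all 4 members had a log2 ratio below 0, as had 5302 of the 10276 protein-coding genes. The intervals lay below 1 for 3 of the 4, and for 37.6% of protein-coding genes. With the empty vector Abcf2, Abce1 and Abcf1 were the highest ABC genes, and with Oct4 and SOX2 they came after Abcb1b. Abce1, the ATPase that splits ribosomes for reuse after termination, was at 49.1 FPKM with Oct4 and SOX2 and 55.1 FPKM with the empty vector, 1.12-fold lower (1.09 to 1.16). Abcf1, which promotes translation initiation with the factor eIF2, was at 53.1 FPKM with Oct4 and SOX2 and 54.8 FPKM with the empty vector, and its interval includes 1. Abcf2 was at 53.3 FPKM with Oct4 and SOX2 and 59.0 FPKM with the empty vector, 1.11-fold lower (1.06 to 1.15). Abcf3, the lowest of them, was at 12.1 FPKM with Oct4 and SOX2 and 15.7 FPKM with the empty vector, 1.29-fold lower (1.21 to 1.39). Together they made up 39.9% of the summed ABC level with Oct4 and SOX2 and 44.3% with the empty vector.

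The ribosome recycling and translation initiation list, 23 genes all measured, held 0 genes past 1.5-fold on the FPKM + 1 scale, with 16 below a log2 ratio of 0, 7 above and a median of -0.13. Over protein-coding genes 5302 of 10276 were below 0, with a median of -0.01. At 1.5-fold, 4.71% of protein-coding genes were higher and 4.48% lower. Its most abundant genes were Eif1, an initiation factor gene, at 291 FPKM with Oct4 and SOX2 and 353 FPKM with the empty vector, and Etf1, for the release factor that acts before Abce1, at 123 and 140 FPKM in the same order of libraries. In plain FPKM Mcts2 of this list, named after its values were seen, was 1.55-fold lower (1.26 to 1.92).

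**Figure D4:**
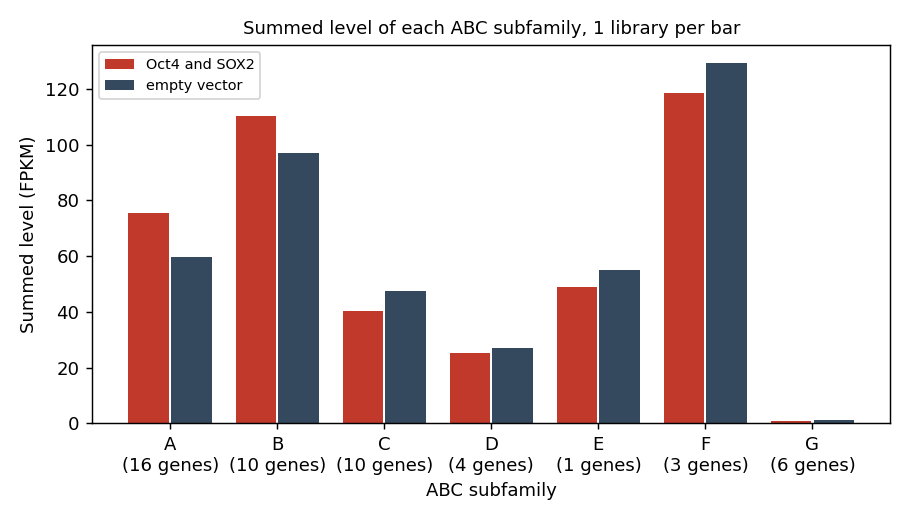
Summed FPKM of all members of each ABC subfamily, with the Oct4 and SOX2 library in red and the empty vector library in dark blue, 1 library per bar. Subfamilies A and B are higher with Oct4 and SOX2, at 75.6 and 110 FPKM against 59.7 and 97.1 FPKM with the empty vector, and the other subfamilies are lower.

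Subfamily G was the one with no measured member, and its 6 genes summed to 0.885 FPKM with Oct4 and SOX2 and 1.21 FPKM with the empty vector. Nearly all of that was Abcg4, a sterol transporter gene of the brain, at 0.837 FPKM from 139 reads with Oct4 and SOX2 and 0.980 FPKM from 163 reads with the empty vector. Abcg4 was just under the 1 FPKM filter and Abcd2 just above it. Abcg1, which moves sterol to high-density lipoprotein, had 4 reads with Oct4 and SOX2 and 23 with the empty vector, 5.74-fold lower (1.96 to 22.8). Abca1, its partner in sterol efflux in macrophages, stood higher instead, as described above. The sterol transporter genes Abcg5 and Abcg8 had 0 and 2 reads with Oct4 and SOX2 and 2 each with the empty vector. Abcg2, the drug exporter behind the dye-excluding side population of stem cells, had 0 reads in both libraries, as had Abcb5. A count of 0 allows up to 3 reads, which for a 1 kb transcript is 0.0942 FPKM with Oct4 and SOX2 and 0.0940 FPKM with the empty vector.

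Genes of sterol efflux and its control by the LXR receptors were measured for 15 of 18, with a median log2 ratio of 0.05. Srebf1 and Arl4c, both known LXR targets, were the 2 genes at least 1.5-fold higher on the FPKM + 1 scale, and 0 were lower by that much. The shares of protein-coding genes at that fold were 4.71% higher and 4.48% lower. In plain FPKM Npc1, named after its values were seen, was 1.502-fold lower (1.41 to 1.60). The counting intervals of the list lay above 1 for 7 genes and below 1 for 5, and included 1 for 3. Of protein-coding genes 34.3% lay above 1 and 37.6% below. Srebf1, a regulator of lipid synthesis, was at 39.8 FPKM with Oct4 and SOX2 and 25.8 FPKM with the empty vector, 1.54-fold higher (1.49 to 1.60). Arl4c, a small GTPase gene, was at 24.9 FPKM with Oct4 and SOX2 and 16.0 FPKM with the empty vector, 1.56-fold higher (1.49 to 1.63). Other known LXR targets, chosen here after their values were seen, were lower, with Apoe at 7.21 FPKM with Oct4 and SOX2 and 10.1 FPKM with the empty vector, a ratio of 0.714 (0.635 to 0.803), and Mylip at 5.99 and 7.87 FPKM in the same order of libraries, a ratio of 0.761 (0.684 to 0.846). Of the receptors, both chosen here after their values were seen, Nr1h2 was at 34.8 FPKM with Oct4 and SOX2 and 33.7 FPKM with the empty vector, and Nr1h3 had 4 reads with Oct4 and SOX2 and 16 with the empty vector.

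Of the 27 members under 1 FPKM in both libraries, 12 had at least 10 reads in 1 library. The interval lay above 1 for 1 of these and below 1 for 4. Among 2448 protein-coding genes in the same range, 18.9% lay above and 23.4% below. Abcb11, the bile salt export pump of liver, was the higher one, with 38 reads with Oct4 and SOX2 and 8 with the empty vector, 4.76-fold (2.19 to 11.8). Abca4, which clears retinoids from photoreceptors, had 44 reads with Oct4 and SOX2 and 192 with the empty vector, 4.36-fold lower (3.13 to 6.19). Abca8a, at the 8 and 39 reads given above, was 4.87-fold lower (2.24 to 12.1). Abcc6, whose loss causes ectopic calcification in humans, had 6 reads with Oct4 and SOX2 and 26 with the empty vector, 4.33-fold lower (1.74 to 12.9). Abcg1, given above, was the fourth.

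The other 7 of these 12 had intervals that include 1. They were Abcg4, Abcb9, Abcb6, Abcb4, Abca12, Abca13 and Abcc12. With Oct4 and SOX2 first, the lysosomal peptide transporter gene Abcb9 had 27 and 24 reads and the porphyrin transporter gene Abcb6 had 24 and 32. In that order Abcb4, the phosphatidylcholine transporter of bile, had 15 and 9 reads. The epidermal lipid transporter gene Abca12 had 8 and 12, Abca13 had 12 and 6, and Abcc12 had 13 and 5.

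Of the remaining 15 members, 5 had 0 reads in both libraries. These were Abca15, Abcb5, Abcc8, Abcc9 and Abcg2. Abcc8 and Abcc9 encode the sulfonylurea receptors of potassium channels, and the channel genes Kcnj8 and Kcnj11 also had 0 reads in both libraries. The other 10, at 9 reads or fewer, were Abca6, Abca9, Abca14, Abca16, Abca17, Abcc2, Abcc3, Abcg3, Abcg5 and Abcg8. Among them Abcc2, the canalicular conjugate exporter of liver, had 3 reads with Oct4 and SOX2 and 8 with the empty vector.

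ABC genes that carry another symbol fall outside the rule, and the pair among them that was measured differed more than most members. Tap1 and Tap2, which pump peptides into the endoplasmic reticulum for loading on MHC class I, are subfamily B genes by structure. Tap1 was at 12.9 FPKM with Oct4 and SOX2 and 24.4 FPKM with the empty vector, 1.89-fold lower (1.80 to 1.99). Tap2 was at 23.7 FPKM with Oct4 and SOX2 and 39.1 FPKM with the empty vector, 1.65-fold lower (1.58 to 1.73). Cftr, the chloride channel of subfamily C, had 1 read with Oct4 and SOX2 and 0 with the empty vector.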

How the data were processed

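The authors deposited 1 table of FPKM values per gene, with gene length and GRCm38 positions, per the file headers. CASAVA, HISAT2 and featureCounts 1.5.0-p3 are named per the submitters' processing notes, and the labels' protocols name a NEBNext Ultra RNA kit. No source used here gives the FPKM formula, annotation release or strand handling. All 50 members were in GENCODE M21, 48 with the same coordinates.

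Read numbers were recovered as FPKM times gene length over the value of 1 read in that library, and 100% came out whole within 0.001 of a read. Ratios are Oct4 and SOX2 over empty vector. The fold rules of 1.5 and 2 used log2(FPKM + 1) on genes with at least 1 FPKM in 1 library, and plain ratios have exact 95% conditional binomial (Clopper-Pearson) intervals. A count of 0 was given a floor of 3 reads. PCR copies are not independent molecules, so intervals and floors cover counting error only.

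Every member at 1 FPKM is named with values, except 2 that enter the counts, medians and sums but are not reported here, those with at least 10 reads with reads, and each companion list gives at most 3 higher and 3 lower genes past 1.5-fold, otherwise its 2 most abundant. The members, lists and rules were chosen with earlier results of these data known. The steps were tested on simulated counts. The work used scipy 1.17.1, numpy 2.4.6, Biopython 1.88, pandas 2.3.3 and matplotlib 3.10.9 in Python 3.11.15.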

Additional observations from a re-analysis of the deposited data

How the results depend on the processing

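Scaling, filter and pseudocount were varied, and Abcb1a and Abcb1b were summed as a choice made after seeing the data, which gave 0.32 for the log2 ratio. The log2 ratios of the 23 members under the other settings numbered 156. Of these, 148 moved by no more than the distance from the middle to either end of their counting interval on the log2 scale. Settings that change only the filter cannot change a member's own log2 ratio. Their values are therefore among the 148 by construction and say nothing of how stable the ratios are. Of the members past 1.5-fold, 0 changed sign. With a pseudocount of 0.1 Abcd2 was at 2.18, so the count of members at least 2-fold higher was 1, as it was by the counting interval. At least 1.5-fold lower, 0 members were counted with a pseudocount of 5, without the 50 highest genes, with plain library totals and by the counting interval. At least 1.5-fold higher, 0 were counted with a pseudocount of 5 and 1 with a filter of 5 FPKM. The median of subfamily A was 0.24 and 0.062 with pseudocounts of 0.1 and 5, -0.0060 with no filter and 0.25 with a filter of 5 FPKM. With no filter, subfamilies B and C had medians of 0.036 and -0.029, and with a filter of 5 FPKM subfamily C had -0.26. The median of Tap1 and Tap2 was -0.67 with a pseudocount of 5, and that of Tap1, Tap2 and Cftr was -0.70 with no filter.

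Over all genes, 520 were at least 2-fold higher and 459 lower with a pseudocount of 0.1, 75 and 56 with 5, 145 and 121 with a filter of 5 FPKM, and 143 and 110 among protein-coding genes. At 1.5-fold the counts were 278 and 282 with a pseudocount of 5, 439 and 454 with a filter of 5 FPKM, and 484 and 460 among protein-coding genes. Plain totals moved the median of all genes from -0.014 to 0.015. The cause was not tested beyond what each setting itself changes. Depth limits members under 10 reads. No paired analysis was possible because each group holds 1 library.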

Other observations

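The nearest protein-coding genes of Abcd2 and Abca1, 3 on each side, were read after the values of these members had been seen. Near Abcd2 on chromosome 15, the kinase gene Lrrk2 was at 16.7 FPKM with Oct4 and SOX2 and 11.0 FPKM with the empty vector, a ratio of 1.52 (95% counting interval 1.46 to 1.58). Kif21a, a kinesin gene 95.9 kb from Abcd2, was at 19.1 FPKM with Oct4 and SOX2 and 16.0 FPKM with the empty vector, a ratio of 1.20 (1.14 to 1.25). Next to Abca1, Nipsnap3b was at 18.3 FPKM with Oct4 and SOX2 and 15.4 FPKM with the empty vector, a ratio of 1.19 (1.08 to 1.31). No cause was tested for any of these values.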
